A study of Homo sapiens with 8 samples.

Results

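A set of 8 genes of kidney development and tubule function was followed in HEK293 cells: the nephron-lineage transcription regulators PAX2, PAX8, LHX1, SALL1, EYA1 and WT1, and the proximal tubule receptors CUBN and LRP2. They were taken by symbol, and 8 of 8 were found among the 60606 genes of the count table. HEK293 is an immortalised human line that was made from embryonic kidney. The tDR cells were transfected with a mimic of the 3' fragment (a tRNA-derived RNA, or tDR) of tRNA-Asp-GTC, and the control cells with a scrambled mimic. A dose of 50 nM was delivered with Lipofectamine RNAiMax in each group, and the cells were harvested 48 hours later. Long RNA of 4 tDR libraries and 4 control libraries was counted per gene, with 5848305 to 9237986 counts per tDR library and 6536554 to 10557740 per control library; the design asks for differences between the mimics. All cells were of 1 line, with no untransfected group among the libraries used here. The labels do not say that replicates were separate cultures, and the spread behind each p-value may be technical.

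The nephron forms where an outgrowth of the nephric duct, the ureteric bud, meets the metanephric mesenchyme and induces it to become epithelium. PAX2 and PAX8 are paired-box factors that specify the nephric lineage, LHX1 is a LIM homeodomain factor needed for the duct and the early nephron, and EYA1, SALL1 and WT1 act in the mesenchyme that the bud invades. In the finished nephron, cubilin (CUBN) and megalin (LRP2) are large endocytic receptors at the apical surface of the proximal tubule, where they retrieve filtered proteins. Cubilin has no membrane-spanning segment and relies on amnionless (AMN) to reach the surface.

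Of the 8 genes, 7 had enough counts to be tested and 2 of these, PAX2 and CUBN, were higher in the tDR libraries (p under 0.05 after Benjamini-Hochberg, or BH, adjustment over all 17184 genes tested with edgeR's quasi-likelihood method). PAX2 was 1.35-fold and CUBN 1.45-fold higher, 0 of the 7 were lower, and 5 did not pass. Among all genes tested 12.8% were called higher and 11.4% lower (24.3% in either direction), and the 2 of 7 are to be read beside these shares. Scaling to total count alone, without the TMM factors used here (trimmed mean of M values), gave 3295 higher and 907 lower genes rather than 2206 higher and 1962 lower, and 4 of the 7 higher. CUBN's call was lost when an estimate of background reads was subtracted, and both calls were lost once gene length and GC content were corrected for, as given below with each gene. PAX8 had too few counts for a test, and it lies for most of its span under a gene of the opposite strand. In bulk libraries such as these, fewer cells with a transcript and less of it per cell cannot be told apart.

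The promoters of the receptor partners CUBN and LRP2, of which the first was called and the second was not, and of the called gene PAX2 are printed here from RefSeq on GRCh38.p14. Each runs from 250 bases before the annotated start to 50 bases after it, written 5' to 3' on the gene's strand, and capitals mark the 50 bases from the start on.
CUBN, chr10:17129762-17130061, minus strand: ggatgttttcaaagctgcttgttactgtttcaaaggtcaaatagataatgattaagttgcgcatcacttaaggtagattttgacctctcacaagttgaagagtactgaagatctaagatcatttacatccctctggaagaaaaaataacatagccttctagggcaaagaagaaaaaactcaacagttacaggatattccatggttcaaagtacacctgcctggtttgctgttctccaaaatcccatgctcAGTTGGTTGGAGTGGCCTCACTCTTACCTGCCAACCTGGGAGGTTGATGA
LRP2, chr2:169362485-169362784, minus strand: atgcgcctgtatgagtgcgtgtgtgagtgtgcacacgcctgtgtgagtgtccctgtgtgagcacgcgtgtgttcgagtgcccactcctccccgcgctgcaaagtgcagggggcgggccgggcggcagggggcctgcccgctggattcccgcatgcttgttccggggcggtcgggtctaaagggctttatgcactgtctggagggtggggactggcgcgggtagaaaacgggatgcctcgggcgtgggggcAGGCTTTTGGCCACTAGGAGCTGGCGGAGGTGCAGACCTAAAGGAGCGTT
PAX2, upstream start, chr10:100735146-100735445, plus strand: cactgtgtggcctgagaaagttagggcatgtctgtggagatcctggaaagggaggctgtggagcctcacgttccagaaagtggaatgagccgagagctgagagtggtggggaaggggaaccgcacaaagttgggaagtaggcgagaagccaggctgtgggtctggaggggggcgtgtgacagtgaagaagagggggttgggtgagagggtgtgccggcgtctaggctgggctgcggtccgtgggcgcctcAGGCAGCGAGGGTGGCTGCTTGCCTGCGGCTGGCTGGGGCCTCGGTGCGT
PAX2, downstream start, chr10:100745332-100745631, plus strand: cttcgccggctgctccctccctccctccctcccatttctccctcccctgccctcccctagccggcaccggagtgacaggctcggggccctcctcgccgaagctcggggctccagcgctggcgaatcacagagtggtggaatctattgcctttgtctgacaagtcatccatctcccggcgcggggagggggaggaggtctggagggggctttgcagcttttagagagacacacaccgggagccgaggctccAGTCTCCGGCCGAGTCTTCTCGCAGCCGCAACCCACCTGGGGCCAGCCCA
The window of CUBN was AT-rich, with a GC content of 40.7% and 1 CpG, while that of LRP2 had 65.3% GC and 23 CpGs. The PAX2 windows held 63.7% GC with 14 CpGs upstream and 66.7% GC with 19 CpGs downstream, against a median of 58.7% GC and 14 CpGs over 35116 RefSeq promoters. In all, 5 of the 8 genes were matched to a RefSeq window, PAX8 and WT1 besides these 3. Both strands were searched for the WT1 and EGR site GCGNGGGCG (held by 9.43% of all windows), the palindromic HNF1 site (0.0057%) and the TATA box TATAAA (11.5%). The single match among these genes was in the first WT1 window (chromosome 11, 32435490 to 32435789), a WT1 and EGR site beginning 143 bases before the start. These matches describe letters only, and no match in the other windows says nothing about the factors.

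PAX2 (chromosome 10, 100735603 to 100829941, plus strand; GENCODE 29 on GRCh38) had 25.1, 20.0, 23.1 and 18.5 CPM in tDR replicates 1, 2, 3 and 4, against 15.5, 16.9, 16.2 and 15.03 CPM in control replicates 1, 2, 3 and 4. CPM is the count of a gene relative to the TMM-adjusted size of its library. Each tDR library lay above each control library, and the tDR libraries were the more spread out. Groups that do not overlap in this direction were found in 11.8% of all genes tested. The means were 21.6 ± 2.98 CPM in tDR libraries and 15.9 ± 0.804 CPM in control libraries (SD, n = 4 each), a log2 fold change of 0.44 (SE 0.13), with a BH-adjusted p of 0.00808 in edgeR. The call was kept with each of the 8 libraries left out in turn, with DESeq2 (0.43, adjusted p = 0.012) and with background subtracted (0.46, adjusted p = 0.0175). With gene length and GC content corrected for, it narrowly missed the threshold (0.30, BH-adjusted p = 0.0516, edgeR). That correction shifted the median of all tested genes by -0.10 on the log2 scale. Relative to the median PAX2 stood at 0.39 with the correction and at 0.42 without it.

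**Figure D1:**
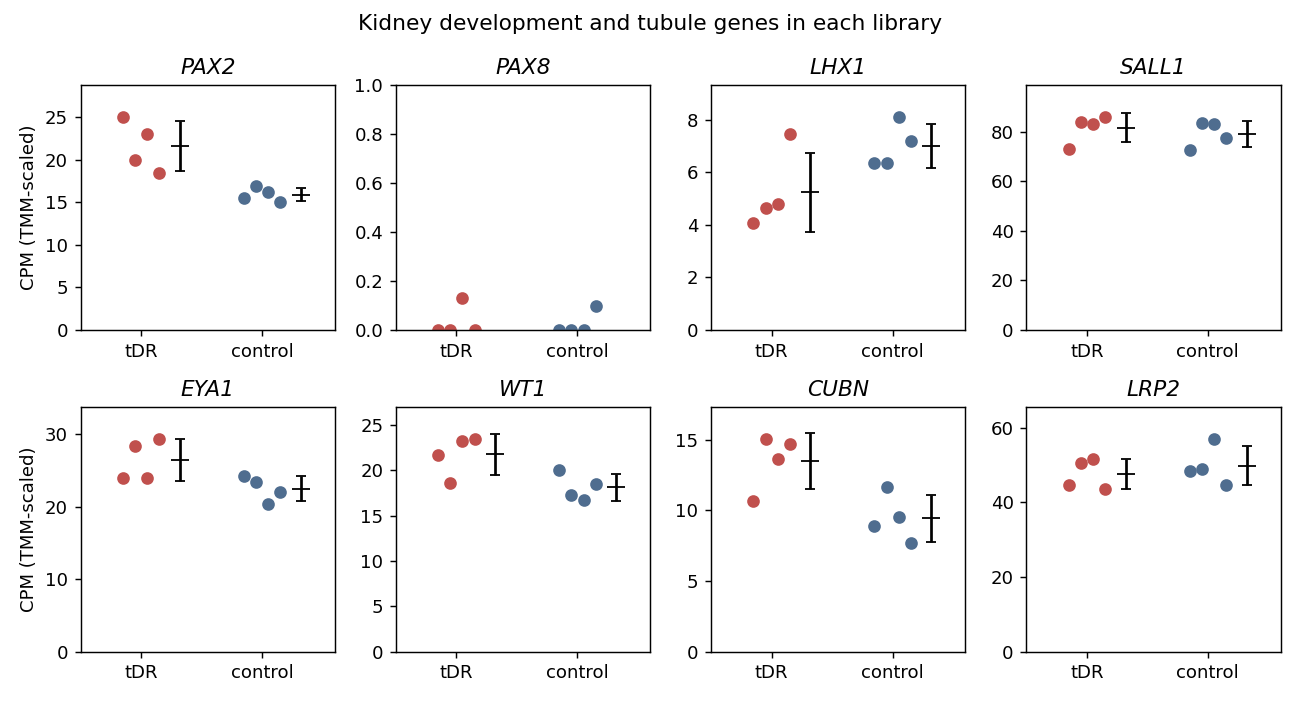
Level of each gene in each library, in TMM-scaled CPM on a linear axis from 0 (points, replicates 1 to 4 from left to right; black bars, mean ± SD of 4 libraries, omitted for PAX8). PAX2 is the gene whose tDR libraries, 18.5 CPM and above, all lie over its control libraries, 16.9 CPM and below, and PAX8 sits at or near 0 in all 8.

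PAX8, the closest relative of PAX2 in this set, had 1 count in tDR replicate 3, 1 count in control replicate 4 and 0 counts in each of the other 6 libraries. In the libraries at 0, the limit that a count of 0 allows (3 counts) corresponds to between 0.315 and 0.508 CPM with the tDR and between 0.328 and 0.477 CPM in controls, for counting error only. PAX8 (chromosome 2, 113215997 to 113278950, minus strand) lies for 96.2% of its span under the long noncoding gene PAX8-AS1 on the plus strand, and 9.3% of its exon bases are shared with exons of that gene. PAX8-AS1 had 5, 0, 2 and 0 counts in tDR replicates 1, 2, 3 and 4, against 0, 2, 0 and 1 counts in control replicates 1, 2, 3 and 4. Both genes of the pair were therefore near 0 in every library. How overlapping genes were counted is not stated in the labels or notes. Of 1087 protein-coding genes with more than 99% of their span under a gene of the opposite strand, 98.4% had 8 or fewer counts over all 8 libraries, against 18.3% of 9590 genes with no such overlap. In the bin of PAX8, above 90% to 99%, the share was 45.0% of 131 genes. What PAX8 mRNA these cells hold cannot be read from its count, and no ratio of PAX2 to PAX8 was computed.

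**Figure D2:**
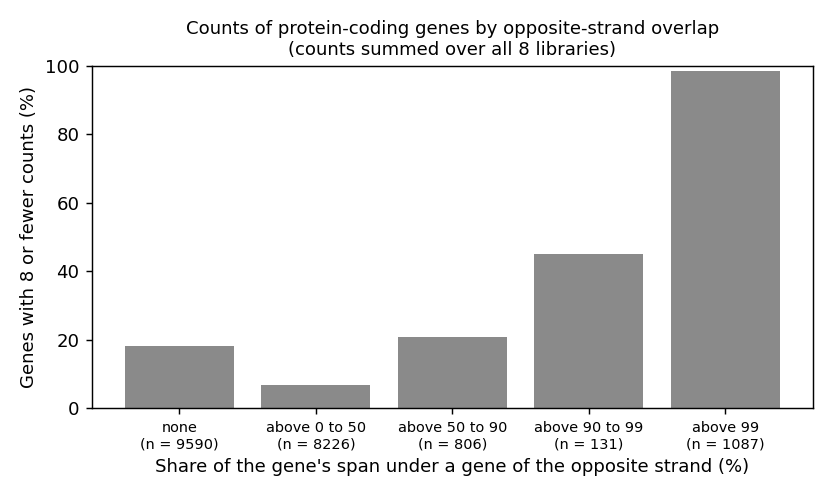
Percentage of protein-coding genes with 8 or fewer counts over all 8 libraries, by how much of the gene's span lies under a gene of the opposite strand (number of genes in brackets). The share reaches 98.4% where over 99% of the span is covered, against 18.3% with no overlap; PAX8 lies in the bin above 90% to 99%.

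LHX1 (chromosome 17, 36936785 to 36944612, plus strand) was the lowest of the tested transcription factors. It had 4.06, 4.66, 4.79 and 7.44 CPM in tDR replicates 1, 2, 3 and 4, against 6.35, 6.36, 8.10 and 7.17 CPM in control replicates 1, 2, 3 and 4. In 3 of 4 tDR libraries the level was below every control library, while tDR replicate 4 lay within the control range. The log2 fold change of -0.38 ± 0.22 (SE) did not pass (BH-adjusted p = 0.204, edgeR), and its 95% interval ran from -0.82 to 0.055. Without tDR replicate 4 it was -0.62 (adjusted p = 0.065). An opposite-strand gene known only by its identifier covers 43.5% of the LHX1 span, so the counts given here may cover LHX1 only in part.

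SALL1, a zinc finger protein, EYA1, a coactivator and phosphatase, and WT1, the zinc finger factor of the mesenchyme and later of the podocyte, did not pass. SALL1 (chromosome 16, 51135975 to 51151367, minus strand) had 73.0 to 86.0 CPM in tDR libraries and 72.5 to 83.5 CPM in control libraries, ranges that overlap almost wholly. Its log2 fold change was 0.05 with a 95% interval from -0.084 to 0.19, which allows a level between 5.64% lower and 13.8% higher with the tDR. This was the narrowest interval among the genes, and the sign turned to -0.076 once gene length and GC content were corrected for. WT1 (chromosome 11, 32387775 to 32435630, minus strand) had 21.7, 18.6, 23.2 and 23.5 CPM in tDR replicates 1, 2, 3 and 4, against 20.0, 17.2, 16.7 and 18.5 CPM in control replicates 1, 2, 3 and 4. Here 3 of 4 tDR libraries were above every control library, and the log2 fold change of 0.26 ± 0.12 (SE) did not pass after adjustment (BH-adjusted p = 0.106, edgeR). The start of WT1 overlaps that of WT1-AS, a divergent noncoding gene on the other strand, by 113 exon bases. WT1-AS averaged 4.24 ± 0.868 CPM in tDR libraries and 2.64 ± 0.575 CPM in control libraries (SD, n = 4 each), with a log2 fold change of 0.71 (BH-adjusted p = 0.0652, edgeR).

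EYA1 lies on chromosome 8 and spans 394.6 kb, of which 2.39% is exon. It had 23.9, 28.3, 24.0 and 29.4 CPM in tDR replicates 1, 2, 3 and 4, against 24.2, 23.4, 20.3 and 22.002 CPM in control replicates 1, 2, 3 and 4. The groups overlapped, since tDR replicates 1 and 3 fell within the control range. EYA1 stood at 0.23 (SE 0.11) on the log2 scale (BH-adjusted p = 0.115, edgeR), and at 0.10 with background subtracted. With scaling to total count alone EYA1 (0.32, adjusted p = 0.0293) and WT1 (0.35, adjusted p = 0.0304) both passed. The processed transcript AC015687.1, named in the table by its identifier, overlaps the 3' end of EYA1 from the other strand. It was higher in tDR libraries, at 7.71 ± 0.249 CPM against 4.33 ± 1.55 CPM in control libraries (SD, n = 4 each; log2 fold change 0.83; BH-adjusted p = 0.00477, edgeR). Its count was below the background estimated for its span, which came to 187% of it.

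CUBN (chromosome 10, 16823966 to 17129817, minus strand) was the least abundant member per exon length except PAX8. It had 10.7, 15.1, 13.6 and 14.7 CPM in tDR replicates 1, 2, 3 and 4, against 8.87, 11.6, 9.54 and 7.66 CPM in control replicates 1, 2, 3 and 4. In 3 of 4 tDR libraries the level exceeded every control library, and tDR replicate 1 lay below control replicate 2. The means were 13.5 ± 1.99 CPM in tDR libraries and 9.42 ± 1.66 CPM in control libraries (SD, n = 4 each), a log2 fold change of 0.54 (SE 0.16), with a BH-adjusted p of 0.0111 in edgeR. Without control replicate 4 the call was lost (0.43, BH-adjusted p = 0.0673, edgeR). It was also lost once gene length and GC content were corrected for (0.38, BH-adjusted p = 0.0568, edgeR). Relative to the median of all genes CUBN stood at 0.47 with that correction and at 0.52 without it.

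LRP2 (chromosome 2, 169127109 to 169362685, minus strand) had 44.7, 50.4, 51.7 and 43.5 CPM in tDR replicates 1, 2, 3 and 4, against 48.4, 49.1, 57.1 and 44.7 CPM in control replicates 1, 2, 3 and 4. The ranges overlapped, with the highest value in control replicate 3 and the lowest in tDR replicate 4. With -0.06 (SE 0.085) the log2 fold change missed the threshold (BH-adjusted p = 0.666, edgeR), and its 95% interval allows a level between 14.6% lower and 8.05% higher with the tDR. Scaling to total count alone turned it to 0.026. With gene length and GC content corrected for, LRP2 was called lower (-0.23, BH-adjusted p = 0.0254, edgeR). Relative to the median of all genes it stood at -0.14 with that correction and at -0.07 without it.

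The count of CUBN was 23.9%, 29.9%, 26.3% and 33.7% of that of LRP2 in tDR replicates 1, 2, 3 and 4, against 18.3%, 23.7%, 16.7% and 17.1% in control replicates 1, 2, 3 and 4. A ratio within a library does not depend on how libraries are scaled. All 4 tDR libraries were above all 4 control libraries, although tDR replicate 1 exceeded control replicate 2 by little. The mean log2 ratio was higher by 0.59 in tDR libraries, or 1.502-fold (p = 0.0286 by an exact two-sided permutation test over 70 assignments, its smallest possible value). With background subtracted from both genes the difference was 0.51 and the groups no longer stood apart by this test (exact two-sided permutation p = 0.171).

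**Figure D3:**
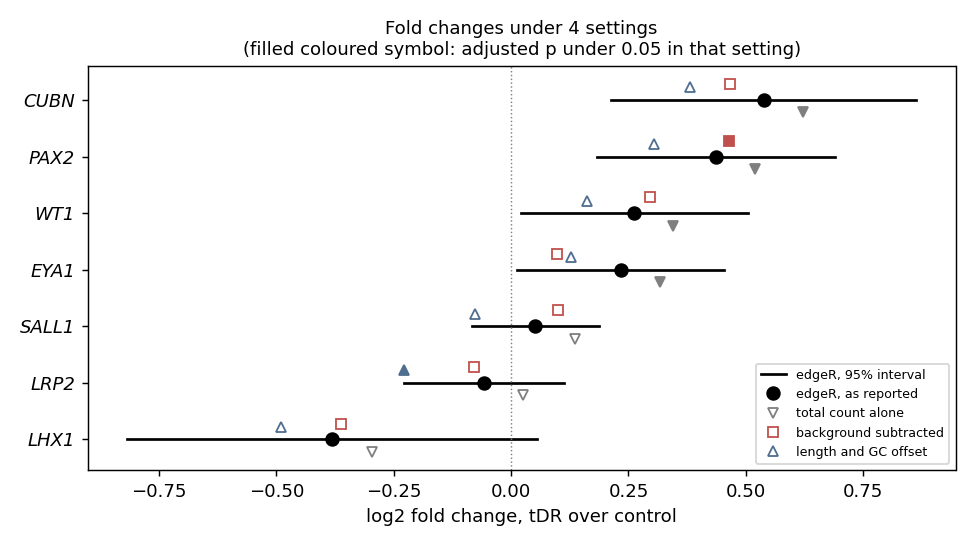
Log2 fold change of tDR over control for the 7 tested genes, as reported (black point with 95% interval) and under 3 other settings (coloured symbols, filled where the adjusted p is under 0.05). PAX2 and CUBN lie highest, at 0.44 and 0.54, and their symbols for the length and GC offset are open.

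Several of these genes are long, and the level of reads that fall on silent genes in proportion to their length was estimated. It was taken from 386 olfactory receptor genes, which are silent in most tissues. Their counts came to between 0.0232 and 0.0262 CPM (on total counts) per kilobase of gene span in tDR libraries, against between 0.0137 and 0.0179 in control libraries. The tDR libraries were thus all above the control libraries in this estimate. Olfactory receptor genes with long introns held 8.23 counts per kilobase of exon over the 8 libraries, against 2.04 in those with no long intron. Per kilobase of span they held 1.01 counts, against 1.99 in those with no long intron.

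Multiplied by gene span, this density was equal to 54.4% of the CUBN counts in tDR libraries and 51.5% in control libraries. For EYA1 it was 36.1% in tDR libraries and 27.3% in control libraries, and for LRP2 12.1% in tDR libraries and 7.52% in control libraries. PAX2 had 10.8% in tDR libraries and 9.32% in control libraries, while WT1, LHX1 and SALL1 had at most 5.33% in either group. With this background subtracted CUBN stood at 3.65 CPM in tDR replicate 1 and at up to 7.53 CPM in the other tDR libraries, against 4.06, 5.99, 5.17 and 3.32 CPM in control replicates 1, 2, 3 and 4. Those groups overlap, with tDR replicate 1 below 3 of the 4 control libraries, and the log2 fold change of 0.47 did not pass (BH-adjusted p = 0.257, edgeR). Among the 1483 tested genes with 30% to 60% estimated background, the range that holds CUBN and EYA1, 31.7% were called higher and 0.135% lower. Among the 2743 genes with 5% to 15%, the range that holds PAX2 and LRP2, 10.0% were higher and 2.22% lower. The shares were 4.84% higher and 20.0% lower among genes with under 5%, and 16.5% higher and 0.379% lower among those with 15% to 30%. Above 60%, where several of the tubule markers given below lie, 40.6% were higher and 0.0585% lower. Beyond the subtraction, the part of this background in the calls of PAX2 and CUBN was not tested. The estimate depends on the receptors used, and 2 other forms were chosen after seeing the data. With the density of receptors with no long intron, background came to 81.9% of the CUBN counts in tDR libraries and 85.2% in control libraries. Subtracting it left CUBN at 0.80 on the log2 scale, not called (BH-adjusted p = 0.516, edgeR). CUBN has long introns, and the lower density of receptors with long introns (1.01 counts per kilobase of span, against 1.99) was not tried. The estimate can be too high for a long gene, since it reached 187% of the AC015687.1 counts. Multiplying the per-span density of all receptors by exon length, 4.34% of the span for CUBN, left its call in place (0.54, adjusted p = 0.0124). So small a subtraction could hardly change the call, and nothing is drawn from it.

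**Figure D4:**
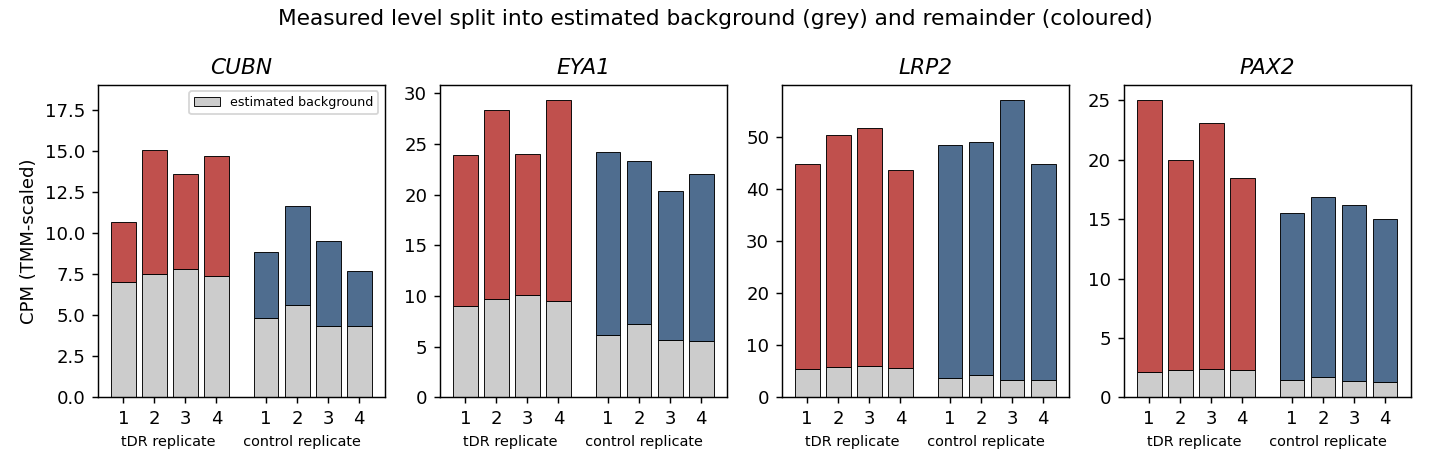
TMM-scaled CPM of CUBN, EYA1, LRP2 and PAX2 in each library (bars from 0), split into the background estimated from olfactory receptor genes (grey) and the remainder (red, tDR; blue, control). Grey makes up 54.4% of the CUBN counts in tDR libraries and 51.5% in control libraries, and 10.8% of those of PAX2 in tDR libraries.

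Per kilobase of exon, SALL1 was the most abundant of the genes, at a mean of 14.2 CPM per kilobase over the 8 libraries (range 12.8 to 15.2). WT1 followed at 4.84 (4.06 to 5.71), and no library of PAX2 reached its range. PAX2 at 3.01 (2.41 to 4.01), LRP2 at 2.99 (2.68 to 3.51) and EYA1 at 2.59 (2.16 to 3.12) had overlapping ranges. LHX1 at 1.25 (0.832 to 1.66) and CUBN at 0.864 (0.577 to 1.14) overlapped each other too, in the same unit of CPM per kilobase of exon. Background was not subtracted in this order.

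Other transcription factors of the nephron lineage mostly did not pass. Of 31 listed, 24 were tested, 2 rose (8.33%), 1 fell (4.17%) and 21 did not pass, against 12.8% higher and 11.4% lower among all genes tested. The median log2 fold change was 0.03, beside 0.02 over all genes tested. TFCP2L1, a regulator of the distal nephron and collecting duct, was at 17.7 ± 2.22 CPM in tDR libraries and 11.4 ± 2.31 CPM in control libraries (SD, n = 4 each; log2 fold change 0.63; BH-adjusted p = 0.00108, edgeR). The EYA paralog EYA2 rose by 0.21 on the log2 scale, while the paralogs EYA3 (-0.08) and EYA4 (-0.12) did not pass. EYA2 lost its call under 6 of 19 alternatives.

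Among 22 signals of ureteric bud outgrowth and nephron induction, 17 were tested, 5 rose (29.4%, against 12.8% of all genes tested) and 0 fell, with a median of 0.01. The called genes were ETV5 (1.85 on the log2 scale), a factor downstream of GDNF and RET signalling, the ligand WNT9B (1.496), FREM1 (0.59), ITGA8 (0.39) and the GDNF co-receptor GFRA1 (0.30). FREM1 and GFRA1 are named to complete this count and were chosen after their values were seen. ETV5 averaged 7.69 ± 1.34 CPM in tDR libraries and 2.103 ± 0.312 CPM in control libraries (SD, n = 4 each). Estimated background made up 41.0% of the counts of WNT9B, 47.2% of FREM1, 27.0% of ETV5, 13.8% of ITGA8 and 13.1% of GFRA1. The receptor gene RET, the bud's receptor for GDNF, was at 0.21 on the log2 scale, short of the threshold (BH-adjusted p = 0.52, edgeR); it was added after the values were seen as the partner of GFRA1.

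Of 19 nuclear partners of the lineage factors, 17 were tested, 2 rose, 2 fell and 13 did not pass, with a median of 0.01. The 4 called are 23.5% of those tested, near the 24.3% called among all genes. LDB1, the cofactor that binds the LIM domains of LHX1, was at 89.8 ± 5.29 CPM in tDR libraries and 71.3 ± 7.42 CPM in control libraries (SD, n = 4 each; log2 fold change 0.34; BH-adjusted p = 0.000201, edgeR). RBBP7 (-0.44) and HDAC2 (-0.32), subunits of the NuRD complex that SALL1 recruits, fell. The other NuRD subunits tested, CHD4, HDAC1, MTA1, MTA2, RBBP4 and GATAD2A, lay between -0.08 and 0.015 and did not pass. They are named after their values were seen, and the complex as a whole was not called lower. BASP1 (0.27), a co-repressor of WT1, rose and is named to complete the count.

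Of the 6 tested PAX genes beside PAX2, 2 rose (33.3%) and 0 fell, against 12.8% higher and 11.4% lower among all genes tested. PAX7 averaged 24.4 ± 2.69 CPM in tDR libraries and 16.2 ± 1.03 CPM in control libraries (SD, n = 4 each). Its log2 fold change was 0.59 (BH-adjusted p = 0.000178, edgeR), and PAX5 rose by 0.87. PAX6 had -0.10 and did not pass. Background was estimated at 11.5% of the PAX7 counts and 46.4% of those of PAX5. Of 9 tested relatives of SALL1, LHX1 and WT1, LHX2 (0.72) and EGR1 (1.48) rose (22.2%, beside the same 12.8%), and 0 fell. SALL2 had -0.15 and did not pass. Of 11 LDL receptor family genes beside LRP2, 4 rose (36.4%, again beside 12.8% of all genes tested) and 0 fell. They were VLDLR (0.49), LRP10 (0.28), LRP1B (0.19) and LRP1 (0.19), the last named to complete the count. VLDLR lost its call under 4, LRP1B under 5 and LRP10 under 6 of 19 alternatives.

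The apparatus that carries megalin and cubilin gave 1 called gene of 11 tested, or 9.09%, against 24.3% called in either direction among all genes. AMN, the membrane partner of cubilin, was at 2.27 ± 0.391 CPM in tDR libraries and 0.948 ± 0.0495 CPM in control libraries (SD, n = 4 each; log2 fold change 1.25; BH-adjusted p = 0.0186, edgeR), a low level that lost its call under 4 of 19 alternatives. The megalin chaperone LRPAP1 was at 0.11 and RAB11A, of the recycling endosome, at -0.15 on the log2 scale, and neither passed. With gene length and GC content corrected for, LRPAP1 turned to -0.012. The list median was 0.08.

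Of 20 proximal tubule markers 8 were tested, 1 rose (12.5%) and 0 fell. Summed over the 20, they came to between 101 and 113 CPM in tDR libraries and between 89.9 and 106 CPM in control libraries. The sodium-hydrogen exchanger gene SLC9A3 was the called one, at 1.99 CPM in tDR libraries and 0.887 CPM in control libraries, with 75.3% estimated background and a call lost under 13 of 19 alternatives. SLC22A2 (0.68) did not pass. SLC3A1 and GGT1 had 0 counts in all 8 libraries, and 4 of the 20 stayed under 1 CPM throughout. Overlap with genes of the opposite strand was not examined for these markers, so counts of 0 do not show that a transcript is absent. The bicarbonate cotransporter gene SLC4A4, at 56.2 ± 4.43 CPM in tDR libraries and 57.7 ± 3.36 CPM in control libraries (SD, n = 4 each), was the most abundant of them. Of 20 markers of podocytes and later segments 10 were tested, 4 rose and 1 fell, or 40.0% and 10.0% of those tested, against 12.8% and 11.4% of all genes tested. SCNN1A (1.35) and SCNN1B (1.205), subunits of the epithelial sodium channel, NPHS1 (1.27) and PTPRO (0.48) rose, all 4 with between 42.2% and 86.1% estimated background, and the podocyte adaptor gene CD2AP (-0.18) fell. NPHS1 and PTPRO are named to complete the count.

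Genes marking injured tubules and other cell types were examined as well. Of 9 injury markers 5 were tested. CD24 (1.34) and KRT8 (0.63) rose, 0 fell, and 3 did not pass, namely KRT18 (0.13), CLU (0.15) and VIM (0.03). CD24 was low, at 3.90 ± 0.870 CPM in tDR libraries and 1.53 ± 0.458 CPM in control libraries (SD, n = 4 each). The injury markers HAVCR1 and LCN2 had too few counts for a test. SOX9 and SPP1 had 0 counts in all 8 libraries, which does not show that their transcripts are absent. The share higher was 40.0%, against 12.8% of all genes tested. The neuronal intermediate filament genes, which HEK293 cells express, were at between 265 and 306 CPM in sum in tDR libraries and between 338 and 381 CPM in control libraries. NEFM (-0.41) and NEFL (-0.46) fell, while NEFH (0.85) and INA (0.14) did not pass. That is 50.0% lower of the 4 tested, against 11.4% of all genes tested. Of 12 markers of blood, endothelial, connective tissue and liver cells, 6 were tested, 3 rose (PECAM1, CDH5 and COL1A1) and 0 fell. The 3 are 50.0% of those tested, against 12.8% higher among all genes tested. Summed, these 12 were between 44.6 and 49.9 CPM in tDR libraries and between 25.2 and 33.9 CPM in control libraries, and 4 of the 12 stayed under 1 CPM in every library. Estimated background was 68.2% of the PECAM1 counts, 53.3% of those of CDH5 and 1.73% of those of COL1A1. All cells were of 1 line, so these genes are given as transcript levels and not as shares of cell types. Their relation to the levels of PAX2 and CUBN was not tested.

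Over the 12 lists beside the 8 genes, 128 of 179 distinct genes were tested, 28 rose and 6 fell. That is 21.9% higher and 4.69% lower, against 12.8% higher and 11.4% lower among all genes tested, and no test was made of the difference. The genes whose log2 CPM followed PAX2 most closely over the 8 libraries were IGSF5 (Pearson's r = 0.99), DAPK3 (0.98) and LINC00469 (0.97), with estimated background at 76.7%, 0.415% and 75.3% of their counts in that order. Those closest to CUBN were DGKB, LINC02336 and XACT (each 0.98), of which DGKB and XACT had counts that the background estimate matched to 104% and 64.8%. These correlations are descriptions over 8 libraries that share the group difference, picked as the highest among 17184 genes.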

How the data were processed

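Libraries were made from TRIzol-extracted total RNA with the SMARTer Pico kit, which is stranded, per the labels' protocols. The authors deposited whole-number read counts per gene, 1 column per library and not normalized, with totals of 5848305 to 9237986 in tDR libraries and 6536554 to 10557740 in control libraries. Per the submitters' processing notes, the tools were featureCounts 2.0.2, STAR 2.7.8a, cutadapt 2.10, DESeq2 1.30.1 and FastQC 0.11.9, with the builds GRCh38.p13 and hg38. Strand setting, annotation and counting of overlapping genes are not stated there. Of 60606 genes, 17184 passed edgeR's filter on low counts. Those were tested in R 4.3.3 with edgeR 4.0.16 (TMM factors, quasi-likelihood F test, group as the only term, adjusted p under 0.05) on all 8 libraries, and with DESeq2 1.42.0 as an alternative. The edgeR steps were tested on simulated counts. Those counts held no group difference in background reads and no length or GC effects, so that trial does not cover them. Positions are from GENCODE 29 (GRCh38), which matched 94.1% of genes, and are 1-based.

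All pairs of libraries differed by more than counting noise (chi-square of 2.13 to 7.36 per degree of freedom). Background is counts per kilobase of span of olfactory receptor genes times a gene's span. The 8 genes and the lists were chosen with earlier results of these data known. From each list the 3 genes with the smallest p are named, all genes of a list of 4, overlapping genes, and the 3 genes closest in pattern to each called gene; some genes that this rule names are not reported here. Floors cover counting error only, while the intervals of fold changes include the spread between libraries.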

Additional observations from a re-analysis of the deposited data

How the results depend on the processing

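PAX2 kept its direction and call under 17 of 19 alternatives (log2 fold changes 0.36 to 0.52) and CUBN under 14 of 19 (0.49 to 0.65). Both counts include background subtracted over exon length, which could hardly change a call and from which nothing is drawn. Where the call was lost, PAX2 stood at 0.30 and CUBN between 0.38 and 0.80. Of the 19 alternatives, 2 were chosen after seeing the data. Of the 7 tested members, 4 were called higher with total count alone, 0 with the length and GC offset, 0 with that offset and the replicate block, 1 with background subtracted, 1 with background from receptors with no long intron, and 1 to 2 with a library left out. The length and GC offset, with or without the replicate block, called 1 lower. With that offset SALL1 turned to -0.076 (-0.082 with the replicate block) and LRPAP1 to -0.012 (-0.0095), and LRP2 turned to 0.026 with total count alone; the cause was not tested. Of all genes, 907 were lower with total count alone, 4257 with the length and GC offset and 4137 with that offset and the replicate block, where 1444 were higher. Background subtraction left 1077 higher and 1095 lower, or 764 and 726 with receptors with no long intron. Of the list genes, 17 were higher with no filter on low counts, 18 with the length and GC offset, also 18 with the replicate block, and 16 with receptors with no long intron; 10 were lower with DESeq2 size factors, 29 with the offset and 27 with offset and block.

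The log2 CUBN to LRP2 ratio difference of 0.59 ranged from 0.50 to 0.70 with a library left out. The exact permutation p was then 0.0286 without control replicate 1 or 2, and 0.0571 without any other library. The difference was 0.51 with background subtracted (exact permutation p = 0.171) and 0.35 with receptors with no long intron (exact permutation p = 0.714). Paired by replicate number the ratio difference was 0.59 (exact sign-flip permutation p = 0.125, the smallest that 4 pairs allow). Same-numbered libraries had correlations of their deviations from -0.029 to 0.070, so the numbers were not taken to pair them. The replicate block changed no call among the 7 genes, with 2040 genes higher and 1834 lower over the table. The planned PAX2 to PAX8 ratio was not computed because PAX8 was at 0 in 6 libraries. PAX8 had too few counts for a test, and why was not tested. LHX1 and CUBN had 24 to 73 and 60 to 140 counts per library.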
